A study of Mus musculus with 15 samples.

Results

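The circadian clock genes of the left ventricle were described in 15 libraries of mRNA from C57BL/6 mice. The 10 genes were Arntl, Clock, Npas2 and Nfil3, called the positive arm here, and Per2, Per3, Nr1d1, Nr1d2, Dbp and Ciart, called the negative arm and output. They were taken from the deposited table by their symbols, and each symbol matched 1 of its 47069 genes. In the PBS group (5 libraries) an infarcted heart received saline into its muscle at day 7 and was taken 2 days later. In the rHCI group (5 libraries) the infarct and the times were the same, and the injection was the rHCI hydrogel, whose name stands for recombinant human collagen type I. The sham group (5 libraries) had a sham operation and no treatment, and its mice were age-matched, at 10 weeks. The sham hearts are therefore controls for infarct and injection together. Hearts were perfused, and RNA came from a powder of the frozen left ventricle. Time of day at harvest is not in the labels, and its part in any difference cannot be told apart from that of the groups.

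The clock is a feedback loop of transcription that runs in nearly every cell, heart muscle included. Arntl (also named Bmal1) pairs with Clock or with its relative Npas2 and switches on genes with E-boxes in their promoters, among them the Per genes, Nr1d1, Nr1d2, Dbp and Ciart. Period and cryptochrome proteins then inhibit the pair, while Nr1d1 and Nr1d2 (REV-ERB alpha and beta) repress Arntl, Npas2 and Nfil3 through ROR elements. In mouse tissue transcripts of the 2 arms peak at opposite parts of the day, and Nr1d1 leads Dbp, which leads the Per genes. A library taken at 1 moment records the phase of the clock as well as the level of its genes.

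Promoter sequences of GRCm38.p6 from RefSeq, covering 250 bases before and 50 after the transcript start, were found for 9 of the 10 genes; Per2 was not among them. Both strands were searched for the E-box CACGTG, the ROR element core TAGGTCA and the D-box TTATGNAA, which the Dbp protein and its rival Nfil3 bind, with no overlaps between these motifs. Windows are shown for the 4 genes that held a match, because each motif belongs to 1 of the loops described below, with the matches in capitals. Ciart (chr3:95882179-95882478, minus strand) had 3 E-boxes at positions 135 to 140, 193 to 198 and 207 to 212 of the window. Per3 (chr4:151044616-151044915, minus strand) had D-boxes at positions 46 to 53 and 93 to 100. Arntl (chr7:113207261-113207560, plus strand, the later of 2 annotated starts) had the ROR core at positions 281 to 287, and Nfil3 (chr13:52980990-52981289, minus strand) had it on the opposite strand at 239 to 245.
Ciart: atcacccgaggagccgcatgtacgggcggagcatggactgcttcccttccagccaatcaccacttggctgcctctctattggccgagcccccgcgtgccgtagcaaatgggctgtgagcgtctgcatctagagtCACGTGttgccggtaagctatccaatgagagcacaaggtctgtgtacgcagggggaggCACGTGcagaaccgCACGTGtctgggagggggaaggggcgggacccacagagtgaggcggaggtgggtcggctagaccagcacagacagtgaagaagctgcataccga
Per3: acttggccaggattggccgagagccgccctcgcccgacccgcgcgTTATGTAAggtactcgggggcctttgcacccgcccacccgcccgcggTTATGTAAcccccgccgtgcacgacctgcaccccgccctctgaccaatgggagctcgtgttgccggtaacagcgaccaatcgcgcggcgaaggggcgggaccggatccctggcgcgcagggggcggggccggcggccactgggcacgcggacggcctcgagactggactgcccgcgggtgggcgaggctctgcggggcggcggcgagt
Arntl: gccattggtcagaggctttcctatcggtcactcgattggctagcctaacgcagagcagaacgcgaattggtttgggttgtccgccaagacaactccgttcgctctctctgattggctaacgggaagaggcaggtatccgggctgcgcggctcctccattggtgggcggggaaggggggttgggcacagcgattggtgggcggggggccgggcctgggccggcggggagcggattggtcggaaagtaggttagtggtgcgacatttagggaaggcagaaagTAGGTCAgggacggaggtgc
Nfil3: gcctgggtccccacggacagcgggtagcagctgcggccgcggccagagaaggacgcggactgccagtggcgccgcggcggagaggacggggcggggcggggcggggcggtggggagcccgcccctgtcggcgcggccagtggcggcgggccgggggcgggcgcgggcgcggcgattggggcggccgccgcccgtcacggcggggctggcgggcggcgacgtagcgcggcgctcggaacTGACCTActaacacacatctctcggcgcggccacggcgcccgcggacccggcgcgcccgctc
Of 32851 RefSeq windows of this length, 7.15% held the E-box, 2.61% the ROR core and 3.38% the D-box. A match is a description of letters, and the absence of one in the other windows says only that these letters are not in them.

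Total counts ran from 32978702 to 103356830 per library, and the members had between 89 and 18211 counts in any library. Levels are CPM (reads of a gene relative to the library's total, after TMM scaling), and differences were tested by the quasi-likelihood method of edgeR, with p-values adjusted over all genes tested and called at 0.05. A number in the labels is read here as the sequencing run. It was shared by 12 libraries, while PBS 6 had a number of its own and rHCI 1 and Sham 19 shared another. Among the members rHCI 13 and PBS 14 stood apart, and several results are given with and without them.

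In PBS hearts all 4 positive-arm genes fell and 3 of the 6 negative-arm genes rose. Npas2 was 2.25-fold, Arntl 1.95-fold, Nfil3 1.70-fold and Clock 1.497-fold lower than in sham hearts. Dbp was 3.35-fold, Per3 2.47-fold and Per2 1.79-fold higher. The background is large, since 34.9% of the 16207 genes tested were called lower and 36.5% higher, and 7 of 10 members called is close to the 71.4% called over all genes (73.5% at an unadjusted p under 0.05, with 7 members). The median absolute log2 fold change was 0.81 over the members and 0.41 over all genes tested. As the members were chosen with earlier results of these data known, this comparison of medians carries no test. Scaling by library totals moved the median log2 fold change of all genes by 0.27 and gave 8938 genes higher and 2610 lower, in place of 5921 and 5653, with 5 members higher, Nr1d2 and Ciart added, and 4 lower. For 6 of the 10 members the PBS and sham libraries did not overlap, against 58.7% of all genes.

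Arntl (ENSMUSG00000055116; GRCm38 chromosome 7, 113207465 to 113314126) encodes the hub of the positive arm. Sham 16 to 20 had 19.8, 25.7, 27.8, 30.4 and 18.2 CPM. PBS 2, 6, 9, 12 and 14 had 13.6, 11.3, 15.97, 13.7 and 7.90 CPM. The libraries rHCI 1, 3, 7, 11 and 13 had 23.1, 20.3, 19.5, 12.6 and 5.15 CPM. Every PBS library lay below every sham library, whereas 3 rHCI libraries lay inside the sham range and rHCI 13 was the lowest of all. The log2 fold change between PBS and sham was −0.96 ± 0.18 (SE; adjusted p = 0.000333 by edgeR). Between rHCI and sham it was −0.58 ± 0.31 and did not pass (adjusted p = 0.118, 95% interval −1.25 to 0.09), with −0.36 without rHCI replicate 13 (adjusted p = 0.101).

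Npas2 (ENSMUSG00000026077; chromosome 1, 39193731 to 39363236) encodes the partner that can replace Clock. It had 8.12, 10.1, 10.2, 10.6 and 7.997 CPM in Sham 16 to 20. PBS 2, 6, 9, 12 and 14 had 4.80, 4.11, 4.92, 3.84 and 3.32 CPM, and rHCI 1, 3, 7, 11 and 13 had 7.86, 6.74, 6.26, 5.75 and 2.86 CPM. All infarcted libraries lay below all sham libraries, and 4 of 5 rHCI libraries lay above the highest PBS library. The log2 fold change was −1.17 ± 0.12 between PBS and sham (adjusted p = 2.23e-06) and −0.66 ± 0.21 between rHCI and sham (adjusted p = 0.0141).

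Clock (ENSMUSG00000029238; chromosome 5, 76209868 to 76304792), the histone-acetylating partner of Arntl, was the least variable of the positive arm. It had 84.3 to 99.1 CPM in sham, 58.2 to 67.1 in PBS and 49.0 to 77.1 in rHCI libraries, with rHCI 13 the lowest. Sham libraries overlapped with neither infarcted group, and the log2 fold changes against sham were −0.58 ± 0.06 for PBS (adjusted p = 1.22e-06) and −0.45 ± 0.11 for rHCI (adjusted p = 0.00257). Nfil3 (ENSMUSG00000056749; chromosome 13, 52967209 to 52981073), a repressor that competes with Dbp at D-boxes, had 11.7 to 26.7 CPM in sham, 9.35 to 14.5 in PBS and 9.18 to 17.6 in rHCI libraries. The 3 groups overlapped, and Sham 20 was the lowest sham library. It fell by 0.77 ± 0.19 on the log2 scale in PBS hearts (adjusted p = 0.00276). In rHCI hearts it fell by 0.62 ± 0.22 (adjusted p = 0.0250), and this call was lost without Sham replicate 16 (adjusted p = 0.0698), 18 (0.0573) or 19 (0.0511), without rHCI replicate 11 (0.0564) and within the shared sequencing run (0.0894).

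**Figure D1:**
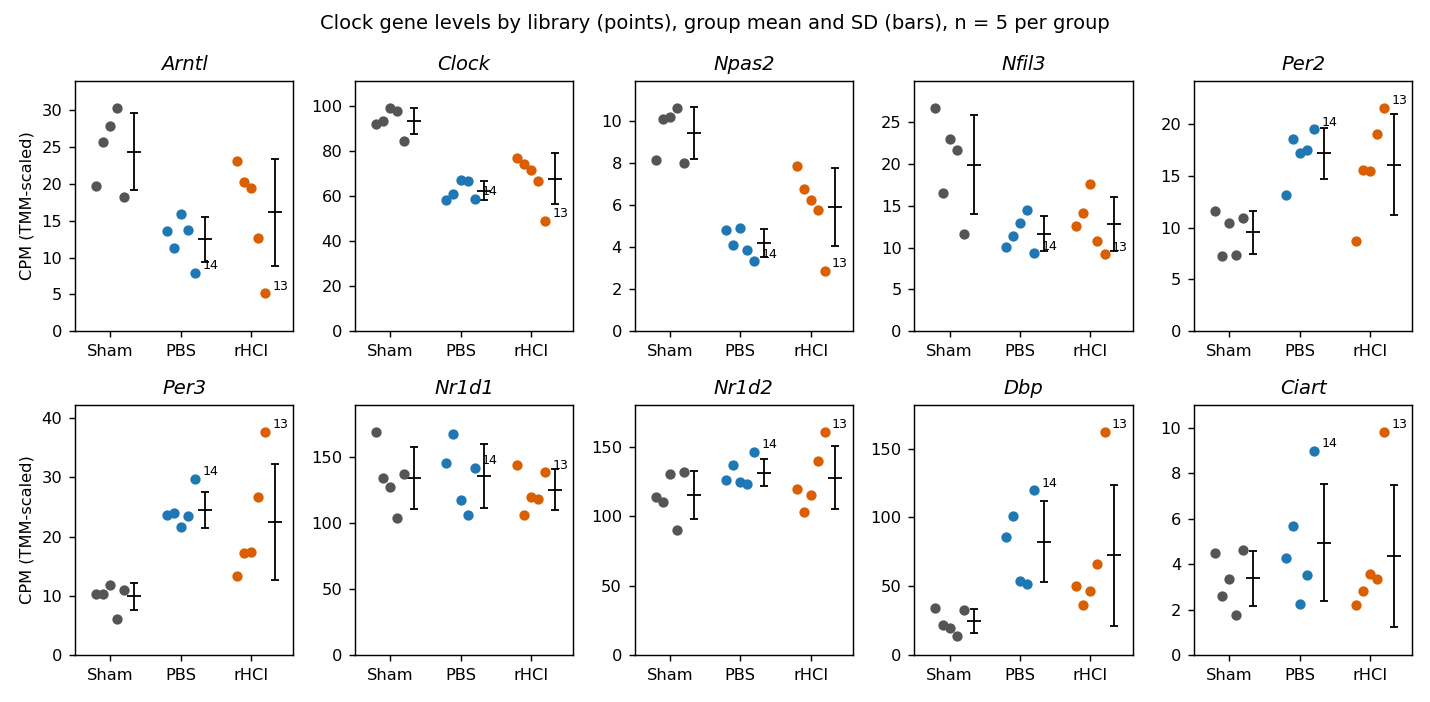
CPM of the 10 clock genes (y axes, linear from 0) in each library (points) of the Sham, PBS and rHCI groups (x axes), with the group mean and SD beside them (n = 5). The numbers 13 and 14 mark rHCI 13 and PBS 14, which had the lowest Arntl of their groups, 5.15 and 7.90 CPM, and the highest Dbp, 162 and 119.7 CPM.

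Dbp (ENSMUSG00000059824; chromosome 7, 45705088 to 45710203) encodes a D-box activator whose transcript follows Arntl and Clock activity directly. Sham 16 to 20 had 34.4, 21.9, 19.7, 13.8 and 32.6 CPM of it. PBS 2, 6, 9, 12 and 14 had 85.9, 101, 53.9, 51.9 and 119.7 CPM, and rHCI 1, 3, 7, 11 and 13 had 50.1, 36.2, 46.4, 66.5 and 162 CPM. All infarcted libraries were above all sham libraries. The log2 fold change against sham was 1.74 ± 0.27 for PBS (adjusted p = 7.02e-05) and 1.57 ± 0.39 for rHCI (adjusted p = 0.00352), the latter 1.02 without rHCI replicate 13 (adjusted p = 0.00227). Dbp shares 539 exon bases, 18.01% of its own, with Sphk2 on the opposite strand, and the strand setting of the counting is not given in the sources used here. Sphk2 reached at most 28.8 CPM in any library.

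Per3 (ENSMUSG00000028957; chromosome 4, 151003652 to 151044665), a period gene with a strong daily swing and a lesser role in the loop, had 10.3, 10.3, 11.9, 6.00 and 10.96 CPM in Sham 16 to 20. PBS 2, 6, 9, 12 and 14 had 23.6, 24.0, 21.7, 23.4 and 29.8 CPM, and rHCI 1, 3, 7, 11 and 13 had 13.4, 17.3, 17.3, 26.6 and 37.8 CPM. The PBS libraries were tightly grouped above all sham libraries, and the rHCI libraries, also all above sham, spread to both sides of them. The log2 fold change was 1.31 ± 0.14 for PBS (adjusted p = 2.94e-06) and 1.19 ± 0.26 for rHCI against sham (adjusted p = 0.00159). Per2 (ENSMUSG00000055866; chromosome 1, 91415982 to 91459324), a core inhibitor of the Arntl and Clock pair, had 7.27 to 11.6 CPM in sham, 13.1 to 19.5 in PBS and 8.69 to 21.6 in rHCI libraries. PBS and sham did not overlap, but rHCI 1 at 8.69 CPM was within the sham range. Its log2 fold changes against sham were 0.84 ± 0.14 for PBS (adjusted p = 9.37e-05) and 0.76 ± 0.21 for rHCI (adjusted p = 0.00712).

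The REV-ERB genes and Ciart did not pass in either comparison with sham, although Nr1d2 and Ciart did in some alternatives. Nr1d1 (ENSMUSG00000020889; chromosome 11, 98767932 to 98775333) had 169.7, 134, 128, 104 and 138 CPM in Sham 16 to 20, then 145, 168, 118, 106 and 142 in PBS 2, 6, 9, 12 and 14, and 144, 106, 119.8, 119 and 139 in rHCI 1, 3, 7, 11 and 13. The groups overlapped over nearly their whole ranges, and rHCI 13, extreme in the other members, was not extreme here. The log2 fold change was 0.01 ± 0.13 for PBS against sham (adjusted p = 0.929, 95% interval −0.27 to 0.30) and −0.09 ± 0.12 for rHCI against sham (adjusted p = 0.525, −0.34 to 0.17), so a change like that of Dbp lies outside both intervals. The sign for PBS was negative within the shared run (−0.15), and that for rHCI was positive with library totals (0.13). Nr1d1 shares 263 exon bases, 8.55% of its own, with Thra on the opposite strand, which reached up to 138 CPM, and reads of this stretch cannot be told apart if strand was not used.

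Nr1d2 (ENSMUSG00000021775; chromosome 14, 18204054 to 18239127), the second REV-ERB gene, had 90.1 to 132 CPM in sham, 124 to 147 in PBS and 103 to 161 in rHCI libraries. Its log2 fold change was 0.19 ± 0.09 for PBS against sham (adjusted p = 0.0776), and it was called without Sham replicate 18 (0.23, adjusted p = 0.0403) or 20 (0.23, adjusted p = 0.0349), with a stricter filter on low counts (0.24, adjusted p = 0.0258) and with library totals (0.46, adjusted p = 0.000225). For rHCI against sham it was 0.16 ± 0.13 (adjusted p = 0.286), and with library totals it was called there too (0.37, adjusted p = 0.0098). Ciart (ENSMUSG00000038550; chromosome 3, 95878503 to 95882251), also named Chrono, a repressor of the Arntl and Clock pair, had 4.51, 2.61, 3.37, 1.75 and 4.62 CPM in Sham 16 to 20. It had 4.28, 5.69, 2.27, 3.54 and 8.996 CPM in PBS 2, 6, 9, 12 and 14 and 2.21, 2.82, 3.56, 3.36 and 9.85 in rHCI 1, 3, 7, 11 and 13. Only PBS 6, PBS 14 and rHCI 13 exceeded the highest sham library. Its log2 fold change was 0.54 ± 0.33 for PBS against sham (adjusted p = 0.160; 0.23 without PBS replicate 14, and 0.72 with adjusted p = 0.0492 without PBS replicate 9, and 0.80 with adjusted p = 0.0381 with library totals) and 0.37 ± 0.39 for rHCI against sham (adjusted p = 0.421; −0.18 without rHCI replicate 13).

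**Figure D2:**
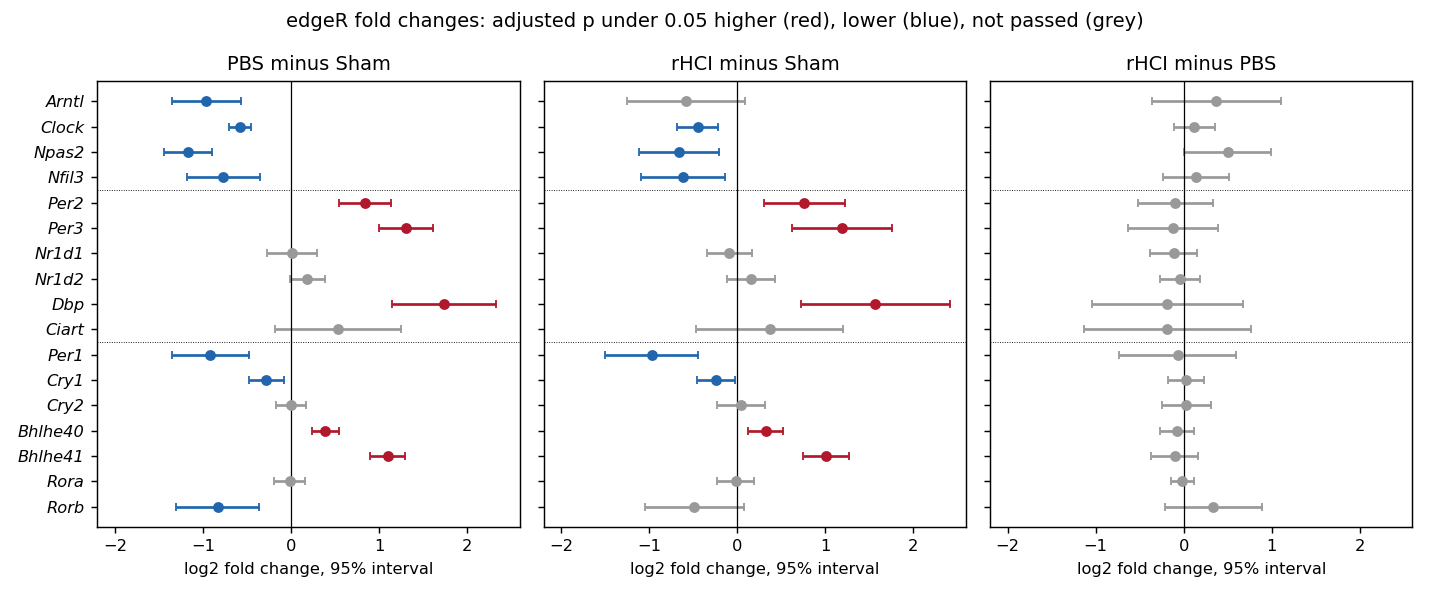
Log2 fold changes (x axes) of the 10 clock genes and 7 other genes of the loop (y axis) by edgeR in 3 comparisons, with bars for the 95% interval of the fit (n = 5 per group). In PBS against Sham 4 positive-arm genes are lower and Per2, Per3 and Dbp higher, and in rHCI against PBS no gene passes.

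In rHCI against sham, 3 members were lower and 3 higher of 10, beside 29.7% and 34.1% of the 16076 genes tested, 63.9% in all (67.3% at an unadjusted p under 0.05, with 6 members). Libraries did not overlap for 4 members and for 49.4% of all genes. With library totals, which moved the median by 0.23, the calls of Clock (−0.22, adjusted p = 0.131), Npas2 (−0.43, adjusted p = 0.112) and Nfil3 (−0.39, adjusted p = 0.156) were lost, 4 members were higher, and 8011 genes were higher and 2128 lower in place of 5487 and 4781. The comparisons of PBS and of rHCI with sham use the same sham libraries, and their values are set side by side for that reason only.

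The comparison of rHCI with PBS asked whether the hydrogel changed the clock genes 2 days after injection. No member passed, and no gene of the 16383 tested did (0% called by edgeR; 3 higher and 3 lower by DESeq2, with 0 members; 579 genes, 3.53%, at an unadjusted p under 0.05, Npas2 the member among them). All 4 positive-arm genes had positive and all 6 negative-arm genes negative log2 fold changes, and each 95% interval except that of Npas2 included 0. The members were chosen with earlier results of these data known and varied together among hearts of 1 group, so these signs carry no test. Npas2 had 0.50 ± 0.23 (interval 0.01 to 0.99, unadjusted p = 0.0478, adjusted p = 0.871), and Arntl 0.37 ± 0.33 (−0.36 to 1.10, adjusted p = 0.871). Dbp had −0.19 ± 0.39 (−1.04 to 0.67, adjusted p = 0.917) and Per3 −0.12 ± 0.23 (−0.64 to 0.39, adjusted p = 0.909). In 9 of the 10 members, all but Nr1d1, rHCI 13 lay beyond every PBS library. Without PBS replicate 14 and rHCI replicate 13, a choice made after seeing the data, the values were 0.60 for Npas2 (adjusted p = 0.574), 0.47 for Arntl (adjusted p = 0.697), −0.55 for Dbp (adjusted p = 0.755) and −0.31 for Per3 (adjusted p = 0.792). Left out singly, the 2 libraries moved the values in opposite ways. Dbp had −0.72 without rHCI replicate 13 and −0.015 without PBS replicate 14, and −0.0003 within the shared run. Arntl had 0.60 without rHCI replicate 13, 0.25 without PBS replicate 14 and 0.17 within the shared run, none of these passing. The libraries of rHCI and PBS overlapped for all 10 members, and 0.531% of all genes were free of overlap. Values of Per2, Per3 and Ciart were positive within the shared run (0.09, 0.0052 and 0.04).

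The arms lay on opposite sides of their sham means in all 10 infarcted libraries, with the positive arm below and the negative arm above. In sham hearts this was not so throughout, since both arms of Sham 18 were above 0. Each gene was centred on its sham mean on the log2 CPM scale, and an index was taken as the mean over the positive arm minus the mean over the negative arm and output. The scale factor of a library nearly cancels in this index. It was −0.31, 0.11, 0.10, 0.75 and −0.65 in Sham 16 to 20. It was −1.57, −1.88, −1.09, −1.29 and −2.36 in PBS 2, 6, 9, 12 and 14. It was −0.49, −0.63, −0.78, −1.43 and −2.83 in rHCI 1, 3, 7, 11 and 13. All PBS libraries were below all sham libraries. The rHCI group held both the infarcted library nearest to sham and the one farthest from it, and 2 of its libraries were above Sham 20. The mean was −1.64 ± 0.50 in PBS (SD, n = 5) and −1.23 ± 0.97 in rHCI, and without rHCI 13 the remaining 4 rHCI libraries had −0.83 ± 0.42, beside −1.46 ± 0.34 in the 4 PBS libraries without PBS 14. The size of the index depended on the genes in it. With Per1, Cry1 and Cry2 added to the negative arm, an unplanned alternative, its mean was −1.24 in PBS and −0.89 in rHCI. Without Nfil3 and Clock its mean was −1.84 in PBS and −1.33 in rHCI. As the genes were chosen with earlier results known, the index carries no test. Sham 19 and rHCI 1, which share a run number, had the highest index of their groups. With the run as a covariate 3 members were higher and 4 lower in PBS, and 3 higher and 3 lower in rHCI, against sham, as without it. In PBS against sham, PBS 6 and Sham 19 were each alone in their run. The covariate there only sets these libraries aside and cannot adjust for run.

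**Figure D3:**
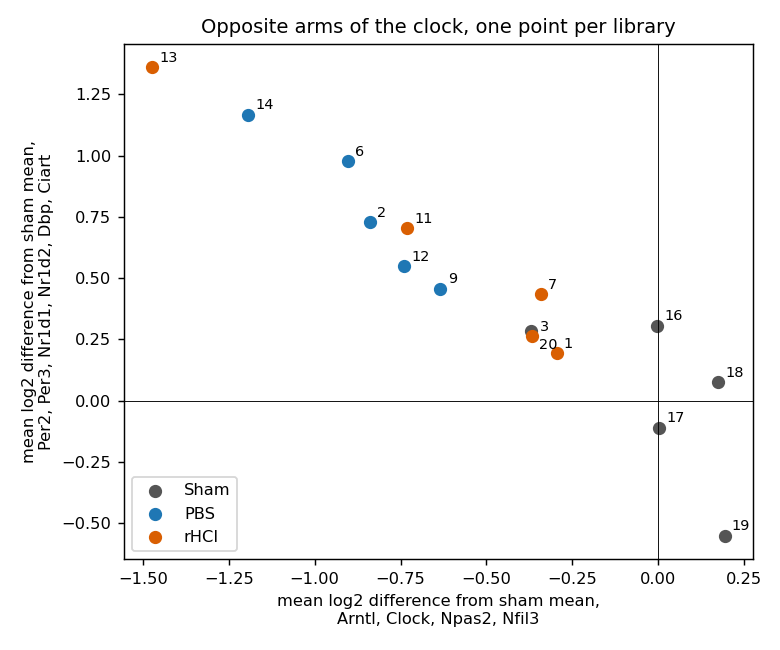
Mean log2 difference from the sham mean over the 4 positive-arm genes (x axis) and over the 6 negative-arm and output genes (y axis), 1 point per library, numbered by replicate. The points fall along a line from Sham 19 at lower right to rHCI 13 at upper left (−1.47 and 1.36), with PBS 14 beside it (−1.19 and 1.17) and rHCI 1, 3 and 7 next to Sham 20.

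The ratio of Dbp to Arntl, CPM over CPM and so free of library scaling, ran from 0.454 to 1.79 in sham libraries, from 3.38 to 15.2 in PBS and from 1.78 in rHCI 3 to 31.6 in rHCI 13. All PBS libraries were above all sham libraries, and rHCI 3 at 1.78 was just below Sham 20 at 1.79. The ratio of Nr1d1 to Arntl overlapped between groups, at 3.42 to 8.57 in sham, 7.39 to 18.02 in PBS and 5.22 to 26.9 in rHCI libraries. The ratio of Per3 to Npas2 was 0.566 to 1.37 in sham, 4.404 to 8.98 in PBS and 1.70 to 13.2 in rHCI libraries, so that sham was apart from both infarcted groups while rHCI spanned the PBS range. Over all 15 libraries rHCI 13 was the lowest in 4 of 4 positive-arm genes and the highest in 5 of 6 negative-arm and output genes, and Sham 19 was the lowest in 5 of those 6.

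**Figure D4:**
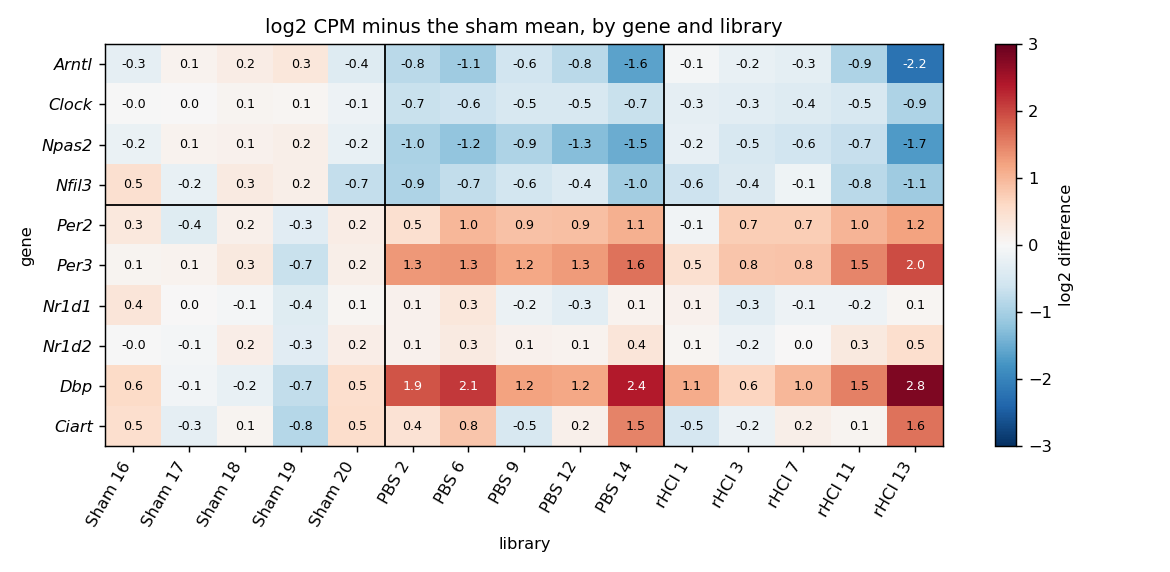
Log2 CPM minus the sham mean (colour and printed value) for each gene (rows) and library (columns), with lines between the groups and between the arms. The positive arm is below 0 in every infarcted library, Dbp and Per3 are above 0 in every infarcted library, and Nr1d1 runs only from −0.36 to 0.35.

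Members also varied together among hearts of 1 group. Over the 15 group-centred libraries Pearson's r with Arntl was 0.96 for Npas2 and 0.94 for Clock, which ranked 1 and 2 from the top among 16633 genes. Dbp (r = −0.91) ranked 4 and Ciart (r = −0.89) ranked 8 from the bottom. Per3 had −0.85, Nr1d2 −0.78, Per2 −0.69 and Nr1d1 −0.40, and Nfil3 had 0.58. All 21 pairs within an arm had a positive r (median 0.72) and all 24 pairs across the arms a negative one (median −0.70). As the members were chosen with earlier results of these data known, these signs carry no test. Other loop genes had r with Arntl of −0.84 (Cry2), −0.65 (Bhlhe41), −0.64 (Per1), −0.03 (Cry1), 0.07 (Rora), 0.12 (Bhlhe40) and 0.18 (Rorb). The correlations are descriptions across libraries, and all genes of a library share its depth and its tissue composition, both of which varied between libraries. Without PBS 14 and rHCI 13 the r with Arntl was 0.85 for Npas2, 0.82 for Clock, −0.81 for Dbp and −0.77 for Ciart. It was −0.72 for Per3, −0.65 for Nr1d2, −0.68 for Per2, −0.40 for Nr1d1 and 0.43 for Nfil3. Of the other loop genes, Cry2 had −0.72 and Per1 −0.59, but Bhlhe41 had only −0.01. Signs changed for Cry1 (0.22), Rora (−0.28), Bhlhe40 (−0.16) and Rorb (−0.33). The ranks and the signs of the pairs are given for all 15 libraries only. Among the genes outside the 10 and at 5 CPM or more, Matn2 (0.94), Pi15 (0.92), Clmp (0.92), Dagla (0.92), Ulk3 (0.91) and Sgce (0.91) had the highest r with Arntl. Pick1 (−0.93), Dgat2 (−0.92), Mtg1 (−0.90), Khk (−0.90) and Tef (−0.89) were among the lowest. Without PBS 14 and rHCI 13 the positive values ran from 0.61 (Sgce) to 0.84 (Clmp). The negative values named here then ran from −0.70 (Mtg1) to −0.85 (Pick1), with −0.73 for Tef. Tef is a D-box activator related to Dbp, and Dgat2 encodes an enzyme of triglyceride synthesis. Over all genes the median r with Arntl was −0.009, and 2.63% had an absolute r of 0.8 or more.

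Members varied more between hearts of 1 group than most genes did. The pooled SD of log2 CPM within groups was 0.72 for Ciart, 0.66 for Dbp and 0.59 for Arntl, and the median was 0.37 over the members and 0.16 over 16634 genes. It was above the median of all genes for 10 of 10 members. The members were chosen with earlier results of these data known, so this comparison of spread carries no test. Of the other loop genes, Per1 exceeded 93.1% of all genes, Rorb 88.9%, Cry2 63.2%, Bhlhe41 61.4%, Cry1 52.8%, Bhlhe40 48.1% and Rora 46.8%. Among genes within 0.5 of its mean log2 level, Dbp exceeded 99.9% and Arntl 99.7%, while Clock (0.17) exceeded 84.0%. The median SD over the members was 0.32 in sham, 0.24 in PBS and 0.53 in rHCI hearts, and over all genes it was 0.13, 0.13 and 0.17. The value for rHCI rested on rHCI 13, without which the median over the members was 0.30 and that over all genes 0.15 (n = 4). Without PBS 14 the PBS medians were 0.21 and 0.11. Arntl had an SD of 0.32 in sham and 0.88 in rHCI hearts, or 0.38 without rHCI 13, and Dbp had 0.54 in sham and 0.84 in rHCI hearts, or 0.36 without it. With rHCI 13 kept, Nr1d1 and Nfil3 were exceptions. Nr1d1 had 0.25 in sham, 0.26 in PBS and 0.18 in rHCI hearts, and Nfil3 had 0.47, 0.26 and 0.36.

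**Figure D5:**
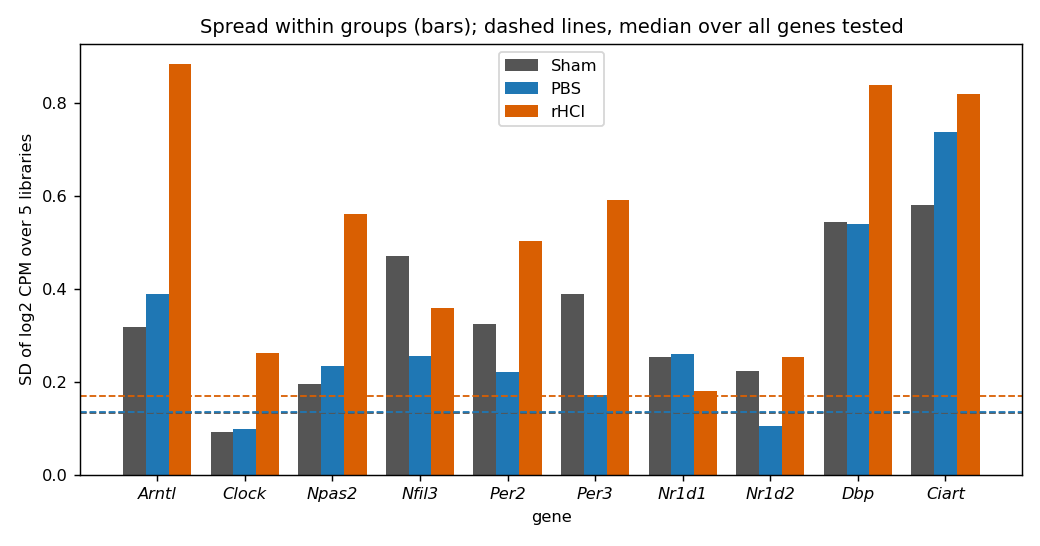
SD of log2 CPM over the 5 libraries of a group (y axis) for each member (x axis), bars by group, with dashed lines for the median SD over all genes tested (0.13 in Sham and PBS, 0.17 in rHCI). The rHCI bars are the tallest for 8 of the 10 genes, the exceptions being Nfil3 and Nr1d1, and without rHCI 13 the median over the members in rHCI is 0.30, beside 0.32 in Sham.

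Per exon length, Nr1d1 was the most abundant member in sham hearts at 43.7 ± 7.68 CPM per kb (SD, n = 5), followed by Nr1d2 at 21.3 ± 3.16. Nfil3 (9.84 ± 2.91), Dbp (8.17 ± 2.93) and Clock (6.80 ± 0.42) came next, neighbours in this order whose libraries overlapped. Arntl had 3.24 ± 0.69 and Npas2 1.96 ± 0.26, and the libraries of these 2 did not overlap. Npas2, Per2 (1.63 ± 0.35), Ciart (1.49 ± 0.54) and Per3 (1.03 ± 0.24) overlapped from each to the next. In PBS hearts Dbp was second at 27.5 ± 9.85 CPM per kb, overlapping with Nr1d1 (44.2 ± 7.89) and Nr1d2 (24.3 ± 1.83), and Npas2 was last at 0.88 ± 0.14, apart from Arntl (1.66 ± 0.41).

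Of 7 other genes of the loop, 2 rose and 3 fell in PBS against sham hearts, close to the 71.4% called over all genes. Per1, the third period gene, did not follow Per2 and Per3. It had 64.0 to 94.0 CPM in sham, 27.3 to 63.7 in PBS and 19.5 to 56.1 in rHCI libraries, with no overlap between sham and infarcted hearts. Its log2 fold change was −0.91 ± 0.20 for PBS (adjusted p = 0.0011) and −0.97 ± 0.24 for rHCI against sham (adjusted p = 0.00366). Among group-centred libraries its r with Arntl was −0.64, on the side of the negative arm. Bhlhe41 (1.10 ± 0.09) and Bhlhe40 (0.39 ± 0.07), the DEC repressors, rose in PBS hearts. Rorb (−0.83 ± 0.22), an activator at ROR elements, fell from 1.27 to 0.713 CPM. Cry1, a cryptochrome that closes the loop late, fell by 0.28 ± 0.09. This call was lost within the shared run (adjusted p = 0.0675), with the run as a covariate (adjusted p = 0.0676) and with library totals (adjusted p = 0.974). Cry2 (−0.00 ± 0.08) and Rora (−0.02 ± 0.08) did not pass, and with library totals both were called higher (0.27 and 0.26). Against sham, rHCI hearts had 2 higher and 2 lower of these 7, beside 63.9% of all genes called. The lower call of Cry1 (−0.24 ± 0.10, adjusted p = 0.0481) was lost with library totals (adjusted p = 0.852), with the run as a covariate (0.0522), within the shared run (0.207), with the filter at 5 CPM (0.0978) and without Sham 17, 18 or 19 or rHCI 1, 3 or 11 (0.059 to 0.119). Rorb did not pass (−0.49 ± 0.26), but did within the shared run (−0.72, adjusted p = 0.0398).

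Of 8 genes listed as outputs of the clock, 2 rose and 4 fell in PBS hearts, also near that 71.4%. Klf15, a cardiac regulator of metabolism, had a log2 fold change of −1.76 ± 0.14, Tspan4 1.51 ± 0.09, Noct, a circadian NADP phosphatase also named nocturnin, −1.35 ± 0.12 and Nampt, the enzyme of NAD salvage, −0.87 ± 0.09. Tef rose by 0.42 ± 0.13, and Hlf, the third member of that family, did not pass (−0.06 ± 0.17). Of 7 genes that modify or turn over clock proteins (kinases, ubiquitin ligase parts and the deacetylase Sirt1), 1 rose and 4 fell in PBS hearts. This too was near the 71.4% called over all genes, and their median log2 fold change was −0.10. Those that passed with the largest change were Fbxl21 (0.99 ± 0.27), Btrc (−0.27 ± 0.07), Sirt1 (−0.23 ± 0.06) and Csnk1e (−0.18 ± 0.05). Fbxl21 was barely detected, with means of 0.28 CPM in sham and 0.56 in PBS hearts and libraries that overlapped.

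Cell type markers were also compared, beside 34.9% of all genes tested called lower and 36.5% called higher in PBS against sham. Of 8 cardiomyocyte markers 7 fell in PBS hearts (Myh6 by 1.01 on the log2 scale), and their summed level was 68158 to 77318 CPM in sham, 35106 to 51205 in PBS and 37441 to 55850 in rHCI libraries. All 6 fibroblast markers rose (Col1a1 by 4.73), from 909 to 1144 CPM summed in sham to 11017 to 16036 in PBS and 9992 to 16183 in rHCI libraries, and all 6 macrophage markers rose (Cd68 by 2.71), from 153 to 184 to 585 to 804 and 583 to 747. Of 5 endothelial markers 3 rose, with sums of 683 to 786, 755 to 881 and 702 to 920. In bulk tissue a smaller share of cells that express a gene and less of its RNA per cell cannot be told apart. Among the infarcted hearts, rHCI 13 (55850), rHCI 11 (52480) and PBS 14 (51205) had the highest cardiomyocyte sums and, at 5.15, 12.6 and 7.90 CPM, 3 of the 4 lowest levels of Arntl. The next highest sum, in rHCI 1 (47258), came with the highest Arntl of the infarcted hearts, 23.1 CPM. The lowest sum, in PBS 12 (35106), came with 13.7 CPM. Sham hearts had higher sums still and 18.2 to 30.4 CPM of Arntl, a range that also held rHCI 1, rHCI 3 and rHCI 7. The part of tissue composition in these results was not tested.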

How the data were processed

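Left ventricular mRNA of 15 libraries was sequenced with a stranded kit, per the labels' protocols. The authors deposited raw read counts per gene, and no normalization had been applied to them. Tools named in the submitters' processing notes are Trimmomatic, STAR, Cufflinks and edgeR, and the builds are GRCm38 and mm10. Which counter, strand setting and annotation made the table is not given in the sources used here. Groups and replicate numbers come from the sample titles, and the series' design text calls the 5 samples of a group biological replicates.

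Each pair of groups was fitted on its 10 libraries with edgeR 4.0.16 in R 4.3.3 (TMM, filterByExpr, glmQLFit, glmQLFTest, two-sided), adjusted over all genes tested at 0.05. Errors of fold changes are standard errors and intervals are 95%. Log2 CPM used a prior count of 2. Gene positions are from GENCODE M21. DESeq2 1.42.0, other scaling and filters, all 15 libraries in 1 fit, the sequencing run and each replicate left out were the alternatives. The fit was tested on simulated data.

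The members and lists were chosen with earlier results of these data known. Genes named are the 10 members, the other loop genes, up to 4 of each further list with the largest change among those called, and those at each end of likeness to Arntl, up to 6 each, with some genes of these lists not reported here; Tef and Hlf were added after values were seen.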

Additional observations from a re-analysis of the deposited data

Results flagged for a closer look

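A library far from the others of its group was looked for in 30 groups of 5, 10 members in 3 groups, with Dixon's criterion, which chance meets in about 1 group of 20. In rHCI hearts Dbp had 162 CPM in rHCI 13 and 36.2 to 66.5 CPM in the other 4 libraries, and Ciart had 9.85 CPM in rHCI 13 and 2.21 to 3.56 in the others. In sham hearts Per3 had 6.00 CPM in Sham 19 and 10.3 to 11.9 CPM in the others.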

How the results depend on the processing

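The 4 lower members of PBS against sham were 4 in every alternative run, and the higher ones numbered 3 to 5. With library totals, PBS against sham had 8938 genes higher and 2610 lower and 5 members higher, and rHCI against sham had 2128 genes lower and 0 members lower. For rHCI against PBS, DESeq2 called 3 genes higher and 3 lower, and leaving out PBS 14 and rHCI 13 together, an alternative chosen after seeing the data, gave 3 lower, with 0 members in each. Leaving out each replicate in turn gave 5767 to 6060 genes higher and 5375 to 5592 lower in PBS against sham, 0 to 3 lower in rHCI against PBS (3 without rHCI replicate 13), and 4421 to 5011 lower in rHCI against sham, where 2 to 3 members were lower.

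Signs changed for these log2 fold changes, and the cause was not tested. In PBS against sham, replicates left out in turn gave −0.071 to 0.11 for Nr1d1, −0.0397 to 0.049 for Cry2 and −0.075 to 0.069 for Rora. Library totals gave 0.27 for Cry2 and 0.26 for Rora, a filter at 5 CPM in 5 libraries gave 0.054 and 0.038, and a fit of all 15 libraries gave 0.0038 for Cry2. The run as a covariate and the shared run alone each gave −0.15 for Nr1d1. In rHCI against PBS, replicates left out in turn gave −0.22 to 0.062 for Per2, −0.39 to 0.015 for Per3, −0.14 to 0.027 for Nr1d2, −0.72 to 0.14 for Ciart, −0.21 to 0.11 for Per1, −0.013 to 0.091 for Cry1, −0.076 to 0.11 for Cry2 and −0.069 to 0.014 for Rora. Library totals gave −0.018 for Cry1 and −0.017 for Cry2. The run as a covariate gave 0.088 for Per2, 0.0034 for Per3, 0.035 for Ciart and 0.027 for Per1, and the shared run alone 0.089, 0.0052, 0.036 and 0.028. Here PBS 6 and rHCI 1 were each alone in their run, so these settings are nearly the same fit. Without PBS 14 and rHCI 13 together, Cry1 had −0.023, Cry2 −0.027 and Rora 0.012. In rHCI against sham, replicates left out in turn gave −0.17 to 0.0040 for Nr1d1, −0.18 to 0.53 for Ciart, −0.073 to 0.12 for Cry2 and −0.078 to 0.068 for Rora. Library totals gave 0.13 for Nr1d1 and 0.20 for Rora, and the filter at 5 CPM gave 0.028 for Rora.

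No paired analysis was possible because the groups share no replicate number.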
